A study of Mus musculus with 15 samples.

Results

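The interleukin-1 family and inflammasome genes described here are Il1b, Il1a, Il1rn, Il1r2, Il1rap, Il18, Il18rap, Casp1, Nlrp3 and Pycard. They were taken by gene symbol from the 3 deposited gene tables, and all 10 were found among the 24421 genes that each table lists. The study sequenced RNA of sorted mouse microglia, the resident macrophages of the brain, taken after a middle cerebral artery occlusion of 60 minutes (an experimental stroke) or a sham operation. All mice were males of 8 to 24 weeks, and the sort gate took cells with intermediate CD45 and intermediate CD11b. In wild-type mice there was 1 library from sham-operated animals and 1 each from days 1, 6, 14 and 28 after the occlusion. Igf1-Egfp transgenic mice, in which EGFP reports Igf1 expression, gave 1 EGFP-negative and 1 EGFP-positive library at 6 days and the same pair at 14 days. A further 3 libraries, at 6 days after occlusion, came from Yy1flox/flox mice, and 3 more from Cx3cr1-CreER;Yy1flox/flox mice, so that both groups carried the floxed allele of the transcription factor gene Yy1 and only the second carried Cre, driven by Cx3cr1. The labels used here do not say how many mice went into a library.

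Interleukin-1 beta and interleukin-18 are made as inactive precursors. An inflammasome assembles when a sensor such as NLRP3 recruits the adaptor ASC, the product of Pycard, which in turn recruits and activates caspase-1, and caspase-1 cleaves both precursors. Interleukin-1 alpha acts on the same receptor as interleukin-1 beta and needs no cleavage by caspase-1 to be active. Il1rn encodes the receptor antagonist, Il1r2 a decoy receptor that binds the cytokine without signaling, Il1rap the shared accessory chain of the interleukin-1 receptor, and Il18rap the accessory chain of the interleukin-18 receptor. In the brain, microglia and infiltrating myeloid cells are known sources of interleukin-1 after ischemia.

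The libraries held between 10528327 and 52618224 counts, and the genes with at least 1 count numbered between 9886 (day 28) and 17321 (day 1). All 12 microglia markers examined had counts in every library. Levels are given as CPM, which are counts relative to the scaled total of the library. Igf1 stood at 49.5 CPM in the EGFP-negative and 813 CPM in the EGFP-positive library of day 6, and at 11.1 and 33.5 CPM in those of day 14. Yy1 averaged 61.6 ± 12.9 CPM in the floxed controls and 33.3 ± 4.97 CPM in the Yy1-deleted group (SD, n = 3 each), a log2 difference of -0.88 with an edgeR adjusted p of 0.128. The lower Yy1 level was not called, although the groups did not overlap. The table of the day 14 EGFP libraries was scaled on its own, as was the Yy1 table, and levels are compared only within a table. In the day 14 EGFP table Yy1 read 1.41 and 1.71 CPM and Map3k7, a signaling gene of the pathway lists, 0.628 and 8.13 CPM, whereas the time course table had 49.0 to 174 and 71.7 to 138 CPM, and the reason was not tested.

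Il1b and Il1a lie next to each other on the minus strand of chromosome 2 (GRCm38, chr2:129364570-129371139 and chr2:129299610-129309972), and Il1rn lies on its plus strand at chr2:24336853-24351494. Il18rap lies at chr1:40515362-40551705 on the plus strand. The 250 bases before the RefSeq start site (GRCm38.p6) are shown for these 4 members because both ligands share a motif at nearly the same place, and Il1rn and Il18rap had among the widest ranges between libraries. Capitals mark matches, read on both strands, to the TATA box letters TATAAA. They also mark the motif known for the factor AP-1, spelled TGANTCA here. The motif searched for the factor PU.1 was spelled AGGAAGT.
Il1b, chr2:129371140-129371389, minus strand: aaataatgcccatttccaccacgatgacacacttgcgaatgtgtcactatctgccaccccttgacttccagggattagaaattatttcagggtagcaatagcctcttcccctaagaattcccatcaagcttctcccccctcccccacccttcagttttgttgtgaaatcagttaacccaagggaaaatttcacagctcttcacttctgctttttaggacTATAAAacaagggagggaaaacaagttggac
Il1a, chr2:129309973-129310222, minus strand: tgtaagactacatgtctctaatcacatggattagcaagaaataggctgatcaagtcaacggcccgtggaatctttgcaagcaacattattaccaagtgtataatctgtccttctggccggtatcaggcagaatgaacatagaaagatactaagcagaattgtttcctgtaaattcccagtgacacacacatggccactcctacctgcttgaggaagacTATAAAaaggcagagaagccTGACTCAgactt
Il1rn, chr2:24336610-24336859, plus strand: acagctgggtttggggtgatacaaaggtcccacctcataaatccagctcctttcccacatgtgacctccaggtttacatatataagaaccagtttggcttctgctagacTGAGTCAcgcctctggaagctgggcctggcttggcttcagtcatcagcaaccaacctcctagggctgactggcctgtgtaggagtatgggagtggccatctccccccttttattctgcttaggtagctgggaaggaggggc
Il18rap, chr1:40515112-40515361, plus strand: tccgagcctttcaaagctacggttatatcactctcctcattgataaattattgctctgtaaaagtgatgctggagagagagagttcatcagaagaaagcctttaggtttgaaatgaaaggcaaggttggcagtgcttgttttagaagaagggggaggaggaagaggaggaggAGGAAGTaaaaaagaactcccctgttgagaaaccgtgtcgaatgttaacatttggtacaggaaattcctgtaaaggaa
The TATA box letters start 31 bases before the start site of Il1b and 32 bases before that of Il1a. The AP-1 letters start 12 bases before the start of Il1a and 141 bases before the most upstream of the 3 RefSeq starts of Il1rn, and the counts do not tell these starts apart. The PU.1 letters start 78 bases before the start of Il18rap. Of 32851 promoter windows of this length, 12.4% held the TATA box letters, 6.75% those of AP-1 and 7.69% those of PU.1. The YY1 letters AANATGGC were in 3.91% of the windows and in those of 0 of the 10 members. A match describes letters in a window and not a bound site.

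Among the ligands, Il1b covered the widest range. In wild-type cells its level was 4.78 CPM after sham operation and 83.7, 20.1, 26.0 and 232 CPM at days 1, 6, 14 and 28. The day 1 level was 17.5-fold that of sham, with a 95% counting interval of 14.6 to 21.0, and the day 28 level was 48.4-fold, with an interval of 40.4 to 58.1. These intervals treat every 2 counts as 1 observation, cover counting error only, and say nothing of the spread between mice, since each time point had 1 library. Days 6 and 14 were the lowest after the operation, at 4.21-fold (3.44 to 5.14) and 5.44-fold (4.36 to 6.77) of sham, and their intervals overlap. In bulk libraries such as these, fewer cells of a type and less RNA per cell cannot be told apart.

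Il1a kept to a narrow range. It read 178 CPM in sham cells, then 185, 135, 110 and 256 CPM at the 4 successive time points, so that its highest wild-type level was 1.43-fold that of sham (1.37 to 1.50). Per kilobase of exon, Il1a was the highest of the 10 members in sham, at 90.3 CPM per kb against 2.51 CPM per kb for Il1b. On day 28 both ligands stood at like levels, 129 CPM per kb for Il1a and 121 CPM per kb for Il1b. Il18 (chr9:50554827-50581840, plus strand) went the other way. From 32.1 CPM in sham cells it read 14.7, 17.7, 8.81 and 0.790 CPM at days 1, 6, 14 and 28, the last of these resting on 18 counts. Sham was 40.6-fold higher than day 28 (21.3 to 89.0).

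Il1rn, the antagonist, peaked on day 1. The sham library read 0.656 CPM, and those of days 1, 6, 14 and 28 read 395, 8.47, 19.5 and 13.7 CPM. Day 1 was 602-fold above sham (370 to 987), the sham value resting on 35 counts. The later days stayed above sham by 12.9-fold (7.75 to 21.7), 29.7-fold (17.8 to 49.8) and 20.9-fold (12.4 to 35.1) in turn. The decoy receptor gene Il1r2 (chr1:40074079-40125231, plus strand) was low, at 0.544 CPM (sham), 14.1 CPM (day 1) and 1.12 CPM (day 6), with 1 count left at day 14 and 0 at day 28. Counts of Il1rn per count of Il1b were 0.137 in sham cells and 4.72, 0.421, 0.749 and 0.0591 at days 1, 6, 14 and 28. In counts, the antagonist thus outnumbered Il1b on day 1 and in none of the other wild-type libraries. These ratios are not adjusted for exon length, 5.54 kb for Il1rn and 1.91 kb for Il1b. Per kilobase of exon, Il1rn read 71.3 CPM per kb on day 1, above Il1b at 43.9 and below Il1a at 93.9 CPM per kb.

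The receptor chains differed from each other. Il18rap read 2.10 CPM in sham cells and 26.0, 8.53, 0.218 and 60.5 CPM at days 1, 6, 14 and 28, the day 14 value being 4 counts. Day 28 was 28.8-fold above sham (21.9 to 38.5) and day 1 was 12.4-fold above it (9.41 to 16.6). Il1rap (chr16:26581704-26730117, plus strand) lay between 15.7 and 28.2 CPM from sham to day 14, and had 2 counts on day 28 against 1045 in sham. The sham level was 223-fold that of day 28, with a counting interval of 39.8 to 8823 that shows how little 2 counts fix the size. Il1r1, the signaling receptor and the partner of Il1rap, read 7.80 CPM in sham cells and 35.4, 100.1, 211 and 0.351 CPM at the later time points. The sum of 10 endothelial markers ranked these libraries in the same order as Il1r1, at 270.5, 391, 2921, 6511 and 37.0 CPM. Vwf read 51.0, 156, 1475, 1411 and 1.14 CPM, and Flt1 read 44.4, 49.0, 240.2, 1320 and 1.32 CPM. On day 1 Pecam1, Tek and Kdr were below sham, whereas Il1r1 and the other endothelial markers were above it. The part of endothelial RNA in the Il1r1 level was not tested.

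Of the inflammasome components, Nlrp3 and Pycard lay within 2-fold of sham on every wild-type day, and Casp1 did not. Nlrp3 (chr11:59541568-59566956, plus strand), the sensor, read 188 CPM in sham and 206, 165, 117 and 296 CPM on days 1, 6, 14 and 28. Pycard (chr7:127989708-127993867, minus strand), the adaptor, read 39.2 CPM in sham and 27.0, 49.0, 31.5 and 27.9 CPM on the same days. Casp1 (chr9:5298517-5307265, plus strand), the protease, read 33.1 CPM in sham and 24.9, 29.1, 11.9 and 5.35 CPM. Sham was 2.78-fold above day 14 (2.26 to 3.40) and 6.18-fold above day 28 (4.76 to 8.14). Il18, Casp1 and Il1rap were thus all at their lowest on day 28, when Il1b, Il1a, Il18rap and Nlrp3 were at their highest among the wild-type libraries. The day 28 library also had the fewest genes with a count (9886 against 16009 in sham), and the part of this in the low levels was not tested.

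**Figure D1:**
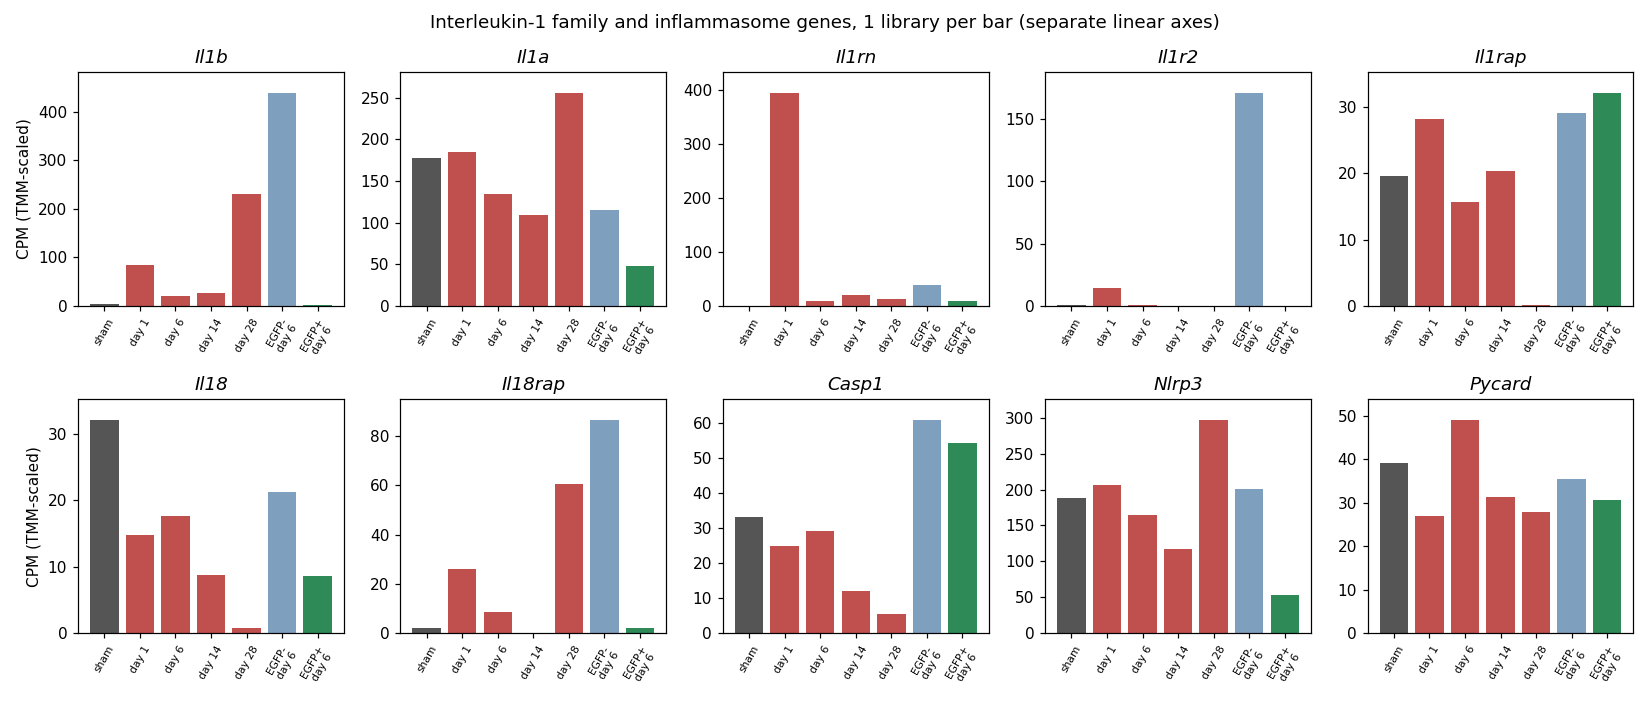
Bars give the level of each of the 10 genes in CPM (vertical, linear axes of their own that start at 0) in the 7 libraries of the time course table, with sham in grey, days 1 to 28 in red, and EGFP-negative and EGFP-positive cells of day 6 in blue and green, 1 library per bar and no error bars. Il1rn peaks on day 1 and Il1b and Il18rap on day 28 among the wild-type libraries, whereas Il18 and Casp1 are lowest on day 28.

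Because there was 1 library per time point, members were counted by a size rule without a test. A gene was past it at 4-fold (a log2 ratio of 2, with 1 CPM added to both levels) and at least 20 CPM in 1 of both libraries. Day 1 had 3 members past the rule, all higher than sham (Il1b, Il1rn and Il18rap), among 9 that reached the minimum. Of the 7203 genes that reached it, 5.59% were past the rule upward and 2.00% downward. Day 6 had 0 members past the rule of 6 at the minimum, beside 6.25% upward and 0.0846% downward of all genes. Day 14 had Il1b alone of 7, beside 12.9% upward and 6.82% downward. Il1rn, at 19.5 CPM, was just under the minimum there. Day 28 had Il1b and Il18rap upward and Il18 and Casp1 downward of 7, beside 11.1% upward and 15.2% downward, and Il1rap in sham, at 19.6 CPM, was just under the minimum. The median log2 ratio of the 10 members was 0.32, 0.07, -0.62 and 0.02 at days 1, 6, 14 and 28, and that of all genes at the minimum was 0.00, -0.09, -0.03 and 0.15. These 4 comparisons share the sham library.

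Other genes of the pathway were read from 6 lists holding 67 genes. On day 1, 7 of 40 at the minimum were past the rule upward and 0 downward, beside 5.59% and 2.00% of all genes. Of the 7 pathway genes, 6 were response genes that interleukin-1 signaling is known to induce, among 11 at the minimum. The neutrophil chemoattractant Cxcl2 was at 1.33 CPM before (sham) and 229 CPM after 1 day, and Ptgs2, which encodes an enzyme of prostaglandin synthesis, was at 9.30 and 524 CPM. Il1r1 was the seventh. On day 6 Il1r1, Ptgs2 and Lcn2 were past the rule upward of 38, beside 6.25% upward of all genes. On day 14 Il1r1, Ptgs2, Cxcl1 and Lcn2 were upward and Il1rl1 and Nlrp1a downward of 40. Of all genes, 12.9% were upward and 6.82% downward on that day. Lcn2 is also among the neutrophil markers summed below. Day 28 had 11 upward and 4 downward of 43, beside 11.1% and 15.2% of all genes. The upward genes included other inflammasome genes, namely Nlrc4, the sensor partner of the NAIP proteins, with 0.113 CPM (sham) and 54.9 CPM (day 28), Mefv, which encodes pyrin, at 0.113 and 38.8 CPM, and Pstpip1, which encodes a pyrin-binding protein, at 1.20 and 113 CPM. Casp4, the protease of the noncanonical inflammasome, was at 24.8 and 165 CPM. The downward genes were Irak4, Tab3, Tollip and Ninj1, of which Irak4 is a kinase of the interleukin-1 receptor complex and read 30.5 and 0.0878 CPM.

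Markers of other blood cells moved with several members. The summed level of 10 neutrophil markers was 58.7 CPM in sham cells and 2449, 432, 73.9 and 2506 CPM at days 1, 6, 14 and 28. Csf3r was left out of this sum after its values were seen, since it read 654 CPM in sham. S100a8, a gene of the neutrophil list, stood at 7.80, 490.3, 73.0, 0.326 and 574 CPM, and S100a9 at 21.1, 833, 136, 10.6 and 1003 CPM. On day 14, 5 of the 10 were at 0 counts and Lcn2 alone gave 62.8 CPM. The like sums of days 1 and 28 were made up differently. Retnlg and Mmp8 read 1.668 and 1.35 CPM in sham, 48.69 and 42.25 CPM on day 1, and 0.08776 CPM each on day 28. Cxcr2 was likewise above sham (0.4124 CPM) on day 1 and below it on day 28, at 0. The other genes of the sum were above sham on both days. Il1b and Il18rap were high in the same libraries as these sums, days 1 and 28, whereas Il1rn was high on day 1 only. On day 28, 5 of 8 dendritic cell markers were past the size rule upward, beside 11.1% of all genes at the minimum. The list summed to 486 CPM against 16.2 CPM in sham, with Ccr7 at 162 and Flt3 at 131 CPM. Itgae and Xcr1 went the other way, from 9.672 and 2.155 CPM in sham to 0 on day 28. The 12 T and NK cell markers summed to 52.7 CPM on day 28 against 3.62 CPM in sham. Klrd1 at 40.2 CPM and Klrk1 at 12.5 CPM made up the day 28 sum. The other 10 were at 0 counts, whereas 3 of the 12 were at 0 in sham. Monocyte markers (10 genes) summed to 81.1 CPM in sham and to between 1674 and 2508 CPM on the other days. Fn1 lay between 757 and 2095 CPM on those days, and Chil3 went from 0.109 CPM on day 14 to 220.1 CPM on day 1. The highest sum, on day 14, held 2095 CPM of Fn1 and 266 CPM of Ly6c1, which is also on the endothelial list. Ccr2, Ly6c2 and Chil3 were below sham on that day, at 0.925, 0.925 and 0.109 CPM against 7.55, 1.86 and 2.74 CPM. The other listed genes were above sham, except Ear2 at 0 in both. The 12 microglia markers summed to 29100 CPM in sham cells and to 6783, 14670, 8836 and 14330 CPM at the later time points, and on day 1 8 of them were past the size rule downward. Border macrophage markers summed to 847, 955, 920.1, 223 and 276 CPM from sham to day 28. Stab1 alone gave 822, 920.3, 874, 208 and 247 CPM of these sums, whereas Mrc1 read 24.5, 22.0, 23.3, 0.109 and 28.6 CPM. The part of the cell makeup in the members' levels was not tested.

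**Figure D2:**
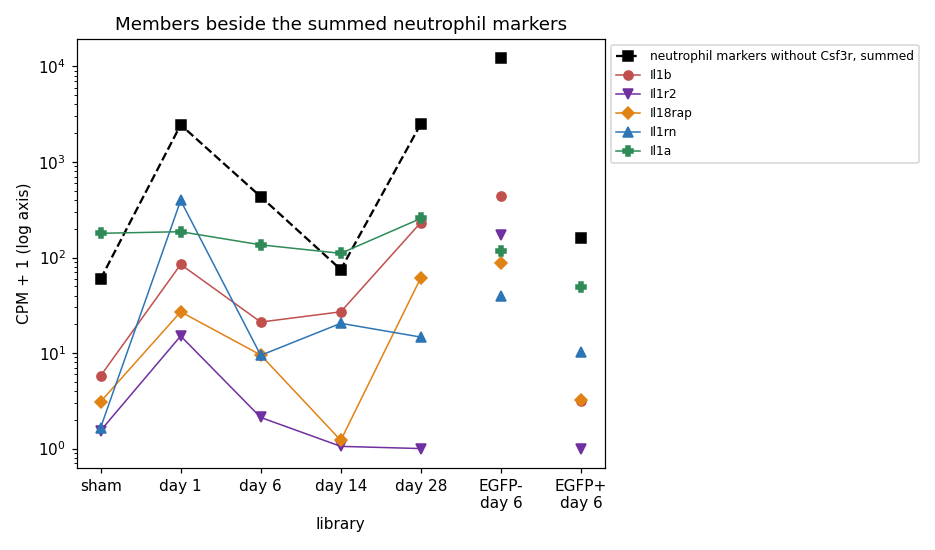
Levels of Il1b, Il1r2, Il18rap, Il1rn and Il1a (coloured symbols) and the sum of 10 neutrophil markers without Csf3r (black squares), in CPM plus 1 on a log axis, for the 7 libraries of the time course table, 1 library per point, with lines joining the wild-type libraries. The marker sum, Il1b and Il18rap are all higher on days 1 and 28 than on days 6 and 14, and highest in the EGFP-negative library.

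The genes nearest in profile to Il1b over the 7 libraries of the time course table were Lcn2, Wfdc21, Cd177 and Pglyrp1. Their mean absolute difference from Il1b, in centred log2(CPM + 1), was 0.56, 0.59, 0.70 and 0.75, among 9363 genes with at least 20 CPM in 1 of the 7. Lcn2 is on both the neutrophil list and the list of response genes, and Cd177 and Pglyrp1 are known neutrophil genes. For Il1rn the nearest were Slc7a11, a cystine transporter gene, at 0.67, the chemokine genes Cxcl2 and Cxcl3 at 0.75 and 0.90, and Cd274, which encodes PD-L1, at 0.94. Casp1 had closer neighbours, Smap1 at 0.17, Asnsd1 at 0.19, Golga7 at 0.22 and Cir1 at 0.22.

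In reporter mice on day 6, most members were lower in EGFP-positive than in EGFP-negative cells. Il1b stood at 438 CPM in the EGFP-negative and 2.16 CPM in the EGFP-positive library, a difference of 203-fold with a counting interval of 140.1 to 305, and these were its highest and lowest levels in the 7 libraries. Il1r2 had 6875 counts (171 CPM) in the negative library and 0 in the positive one, which allows up to 0.116 CPM (3 counts). Il18rap stood at 86.4 and 2.24 CPM, 38.6-fold apart (26.8 to 57.8), and Il1rn at 39.0 and 9.27 CPM, 4.21-fold apart (3.47 to 5.15). Nlrp3 was at 201 and 53.6 CPM, Il1a at 115 and 48.0 CPM, and Il18 at 21.3 and 8.62 CPM. The remaining members were close in both states. Il1rap was at 29.1 CPM (negative) and 32.1 CPM (positive), Casp1 at 60.7 and 54.2 CPM, and Pycard at 35.4 and 30.8 CPM. EGFP-positive cells held 4.29 counts of Il1rn per count of Il1b, and EGFP-negative cells 0.0890, without adjustment for exon length.

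By a size rule of 2-fold (a log2 ratio of 1) with the same minimum, 7 of the 10 members were lower in the EGFP-positive library of day 6 and 0 were higher, beside 11.9% lower and 7.53% higher of all 7252 genes at the minimum. Their median log2 ratio was -1.57, that of all these genes -0.04. Of the other pathway genes, 17 of 44 were lower and 2 higher. Response genes made up 9 of the lower ones, among 10 at the minimum, with Lcn2 at 501 and 4.56 CPM, Cxcl2 at 335 and 14.3 CPM, Ptgs2 at 153 and 28.2 CPM and Nfkbiz at 766 and 177 CPM. Myd88, the adaptor through which the interleukin-1 receptor signals, stood at 69.2 and 18.4 CPM. Gsdmd, which encodes the pore-forming protein cut by inflammatory caspases, stood at 72.5 and 32.6 CPM, and Casp4 at 55.5 and 12.4 CPM. The higher ones were Il18bp, encoding a secreted protein that binds interleukin-18, at 10.1 and 84.2 CPM, and Ninj1, which acts in membrane rupture, at 33.5 and 97.8 CPM. Neutrophil markers without Csf3r summed to 12150 CPM in the negative and 160 CPM in the positive library (S100a9 at 4937 and 25.5 CPM, S100a8 at 3106 and 35.2 CPM). Monocyte markers summed to 5105 and 1573 CPM, dendritic cell markers to 357 and 7.88 CPM, and T and NK cell markers to 111 and 10.3 CPM, the latter from Cd4 alone. Border macrophage markers went the other way, summing to 454.7 and 2655 CPM, with Stab1 at 364 and 2392 CPM and Ms4a7 at 16.8 and 144 CPM. Microglia markers summed to 8152 and 8319 CPM, and endothelial markers to 623 and 568 CPM. The part of these cells in the members' difference was not tested.

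On day 14 the members did not show that pattern. Il1b was at 40.1 CPM (negative) and 53.0 CPM (positive), Il1a at 239 and 193 CPM, Il1rn at 21.6 and 28.7 CPM, Il18 at 26.5 and 34.8 CPM, and Nlrp3 at 40.9 and 52.7 CPM. Pycard was at 223 and 213 CPM and Il1rap at 16.0 and 14.6 CPM. Il18rap had 0 counts in the negative and 21 in the positive library. Il1r2, at 5.81 and 27.9 CPM, was the 1 member past the rule, higher in EGFP-positive cells by 4.81-fold (3.72 to 6.28), of 8 at the minimum, beside 11.2% higher and 10.9% lower of all genes. Casp1, at 68.1 and 34.0 CPM, lay just inside 2-fold once 1 CPM was added (log2 ratio -0.98). The neutrophil markers went the other way than on day 6, summing to 0.157 CPM (9 of 10 at 0) in the negative and 1137 CPM in the positive library, and endothelial markers summed to 30.7 and 602 CPM. Csf3r, left out of these sums, was at 1241 and 1223 CPM. The part of these cells in the day 14 levels was not tested. Of the other pathway genes, 4 were higher (Tab1, Map3k8, Nlrp1a and Lcn2) and 5 lower (Irak3, Peli1, Irak1, Peli2 and Tnf) of 35.

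An edgeR quasi-likelihood fit of EGFP state over both days, with day as a covariate and 1 residual degree of freedom, called 0 of 12842 genes (0%) at an adjusted p of 0.05. The unadjusted p was under 0.05 for 1.50% of the genes and for 0 of the 10 members, whereas DESeq2 called 35 genes, 0 of them members, and gave 1 member an unadjusted p under 0.05.

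**Figure D3:**
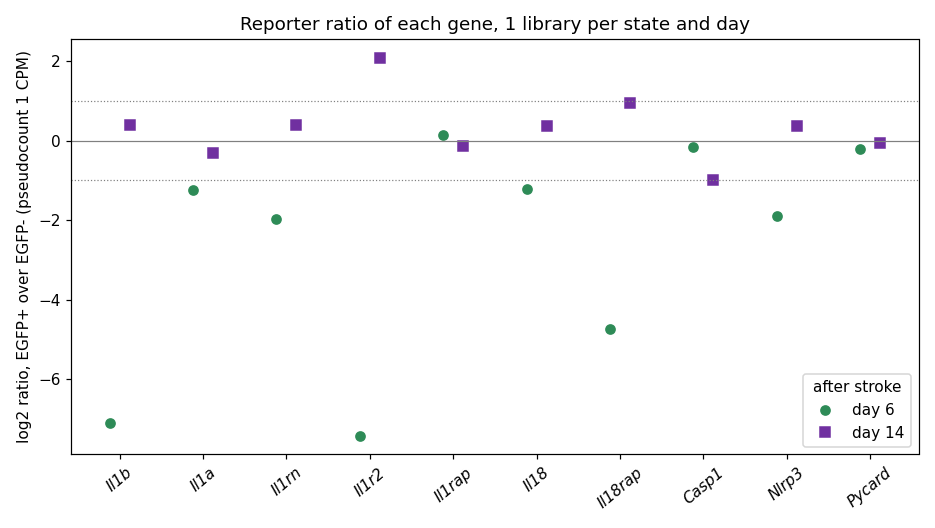
Log2 ratio of EGFP-positive to EGFP-negative cells for the 10 genes on day 6 (circles) and day 14 (squares), from 1 library per state and day with 1 CPM added to both levels. Dotted lines mark log2 ratios of 1 and -1, and on day 6 Il1b, Il1r2 and Il18rap lie farthest below 0 while on day 14 Il1r2 lies farthest above it.

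The Yy1 groups, both taken on day 6, were the ones with replicates. Il18rap was lower in Yy1-deleted cells, at 36.1, 40.7 and 38.8 CPM in the floxed controls and 0.589, 6.19 and 0 CPM in the deleted group. The controls lay close together and the groups did not overlap. The means were 38.5 ± 2.32 and 2.26 ± 3.41 CPM (SD, n = 3 each), a log2 difference of -4.05 with a standard error of 0.92 and an edgeR adjusted p of 0.0227. It was the 1 member called of 10 tested, beside 2.60% called of 12387 genes tested, 1.05% called lower and 1.55% called higher (130 and 192 genes, or 192 and 128 when scaled by total counts). The call was lost with DESeq2 (adjusted p 0.147), without any 1 of the floxed controls (edgeR adjusted p 0.175, 0.118 and 0.091 in turn) and without deleted replicate 1 (edgeR adjusted p 0.0882). Il18r1, which encodes the binding chain of the same receptor, had between 0 and 0.518 CPM in the 6 libraries, and T and NK cell markers, of which Klrd1 was at 0 in all 6, summed to between 1.12 and 5.69 CPM in the controls and to at most 0.687 CPM in the deleted group.

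Il1b varied more within the groups than any other ligand. It read 3.60, 15.5 and 8.92 CPM in the controls and 49.0, 5.94 and 83.8 CPM in the deleted group, so that deleted replicate 2 lay among the controls. The means of 9.33 ± 5.94 and 46.2 ± 39.0 CPM (SD, n = 3 each) gave a log2 difference of 2.31 with a standard error of 0.69, and the edgeR adjusted p was 0.0981. Without deleted replicate 2 Il1b was called, with an edgeR adjusted p of 0.00238, and DESeq2 called it over all 6 libraries, with an adjusted p of 0.018. Il1a read 169, 162 and 144 CPM in the controls and 225, 207 and 229 CPM in the deleted group. Its groups did not overlap, its log2 difference was 0.48 with a standard error of 0.16, and its adjusted p was 0.142 by edgeR and 0.0403 by DESeq2. Il18 was at 22.1, 33.4 and 26.5 CPM in the controls and 9.42, 20.8 and 20.4 CPM in the deleted group, also without overlap, with an edgeR adjusted p of 0.55.

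The other members gave no call in edgeR. Il1rn read 16.8, 20.3 and 10.7 CPM in the controls and 11.3, 11.1 and 6.69 CPM in the deleted group (adjusted p 0.685). Il1r2 was at 0.921, 3.89 and 0 CPM against 0, 0 and 5.21 CPM (adjusted p 0.993). Il1rap was uneven in the deleted group, at 3.24, 39.9 and 12.6 CPM, whereas the controls read 17.2, 17.9 and 18.3 CPM (adjusted p 0.986). Casp1 read 59.0, 63.5 and 42.3 CPM against 32.3, 15.5 and 63.8 CPM, Nlrp3 278, 251 and 187 CPM against 163, 214 and 208 CPM, and Pycard 37.2, 34.7 and 21.3 CPM against 34.7, 72.6 and 24.9 CPM. The edgeR adjusted p of these 3 was 0.625, 0.545 and 0.668, and their groups overlapped. In all, 3 of the 10 members had groups that did not overlap, beside 21.1% of all genes tested. The members' median log2 difference was -0.11, that of all genes tested -0.02.

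**Figure D4:**
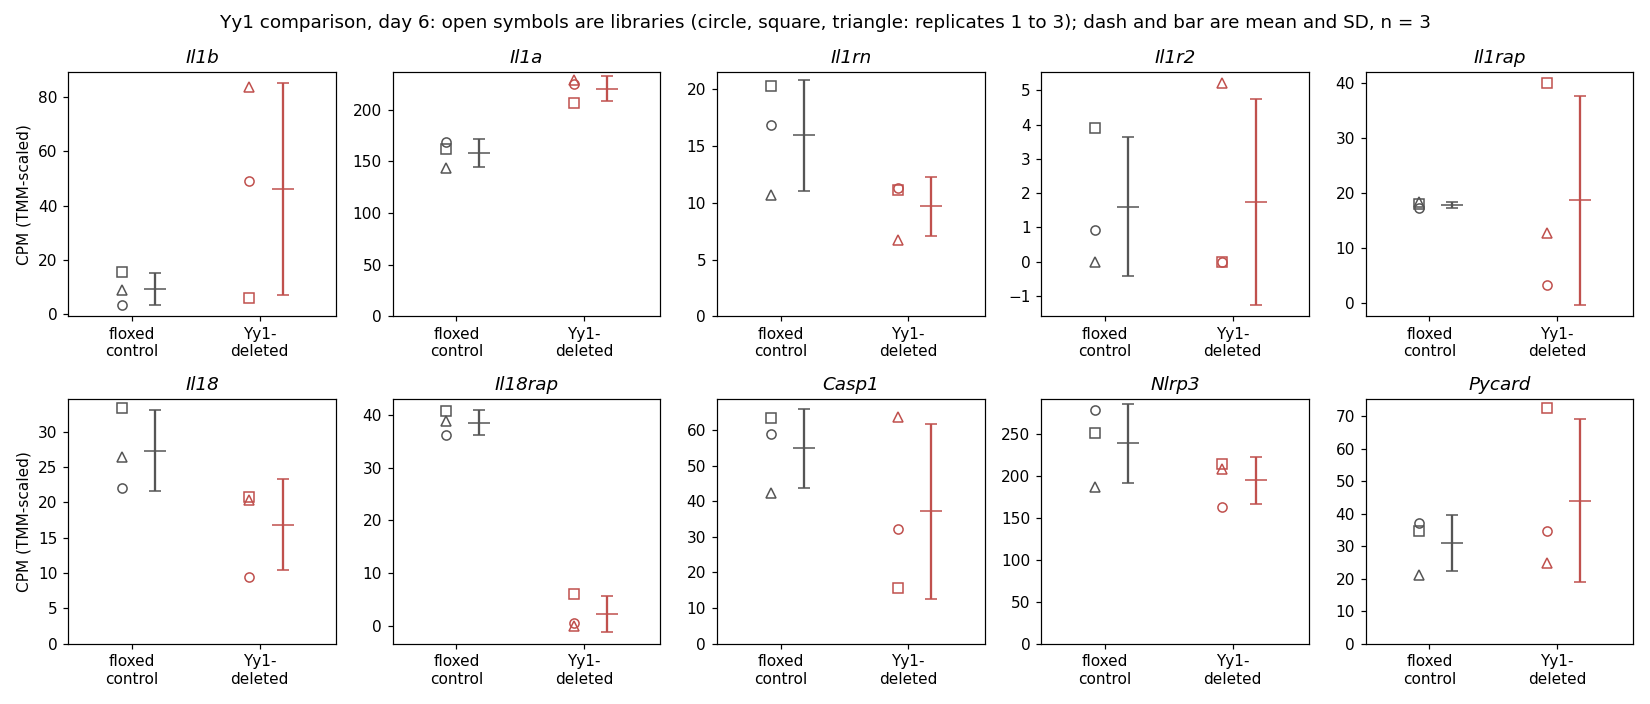
Levels of the 10 genes in CPM (vertical, linear axes of their own) in the 3 floxed control (grey) and 3 Yy1-deleted (red) libraries of day 6, with open symbols for libraries and dash and bar for the mean and SD (n = 3). The groups of Il18rap, Il1a and Il18 do not overlap, and the deleted group is spread widely for Il1b and Il1rap.

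Of the 67 other pathway genes, 51 were tested in the Yy1 comparison. By edgeR 1 was called higher and 1 lower, beside 1.55% and 1.05% of all genes tested. Aim2, which encodes a sensor of cytosolic DNA that recruits ASC, fell from 324.9 ± 14.2 to 164 ± 11.3 CPM (SD, n = 3 each), a log2 difference of -0.98 with a standard error of 0.15 and an edgeR adjusted p of 0.00122. It was called under all 12 alternatives run. Txnip, whose product binds thioredoxin and has been linked to NLRP3, rose from 443 ± 31.2 to 639 ± 41.8 CPM (SD, n = 3 each), with an edgeR adjusted p of 0.0333, and was called under 6 of the 12. Both are among the 14 sensors and adaptors tested. The tested members of the other lists (1 ligand, 4 receptors, 15 signaling genes, 6 executioners and 11 response genes) gave 0 calls in edgeR, and 8 of these 37 had an unadjusted p under 0.05, beside 14.1% of all genes tested. The median log2 difference of the 51 genes was -0.17. Beside these values, all 12 microglia markers were called higher in the deleted group (summing to 19610 to 21290 CPM against 10900 to 12200 CPM), and 2 of 9 monocyte markers, Chil3 and F13a1, were called lower (the list summing to 657 to 763 CPM against 931 to 1354 CPM). Border macrophage markers summed to 551 to 776 CPM in the deleted group against 1009 to 1351 CPM. Most of these sums was Stab1, at a mean of 672 CPM against 1104 CPM. It was the 1 gene called lower of 5 tested on this list (edgeR adjusted p 0.0153). Endothelial markers summed to 454 to 629 CPM against 641 to 874 CPM, with 0 of 10 called by edgeR and 4 of 10 at an unadjusted p under 0.05. Neutrophil markers without Csf3r summed to 329 to 359 CPM in the controls and 272.5 to 404 CPM in the deleted group. Csf3r itself was called higher, at a mean of 988 CPM in the deleted group against 533 CPM (edgeR adjusted p 0.00138). It was the 1 gene called of 10 tested on the neutrophil list. The part of a different cell makeup in these results was not tested.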

How the data were processed

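RNA of sorted mouse microglia was measured by bulk RNA sequencing in 15 libraries. The deposited tables hold counts per gene in the time course and day 14 tables, and expected counts, some fractional, in the Yy1 table. The tools STAR, featureCounts and edgeR and the builds mm10 and GRCm38 are listed, without versions or roles, per the submitters' processing notes. Fractional values were rounded here. Of the whole-number values, 68.7% to 90.9% of counts from 1 to 20 were even, against 45.4% to 49.5% in the Yy1 table, so counting intervals (exact Clopper-Pearson, 95%) were taken on halved counts. The even counts were not stated in the labels, and their origin was not tested. The 3 gene tables also carry 27 date-like names.

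CPM were scaled by TMM within each table (edgeR 4.0.16, R 4.3.3). Yy1 groups were compared with edgeR's quasi-likelihood test, two-sided, with Benjamini-Hochberg adjustment over 12387 genes and a threshold of 0.05. The labels call these libraries biological replicates. The p-values measure only the spread between them. Comparisons with 1 library a group have no test. Named genes were all members, up to 4 listed genes per list and comparison past the rule, the 4 nearest profiles of Il1b, Il1rn and Casp1, and the 2 highest genes of each marker list. Alternatives were RLE and total-count scaling, no filter, DESeq2 1.42.0, limma 3.58.1, a replicate block, left-out libraries, pseudocounts and minimum levels. The halved counts and a minimum of 10 counts were added after seeing the data. Some marker genes were also named after seeing that they differed from the sum of their list. Members and lists were chosen with earlier results of these data known. Gene positions are from GENCODE for GRCm38 and promoters from RefSeq.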

Additional observations from a re-analysis of the deposited data

Results flagged for a closer look

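The EGFP-positive to EGFP-negative log2 ratio had opposite signs on day 6 and day 14 for 7 members, each from 1 library per state and day, and 6 of these were past the 2-fold size rule on at least 1 of both days. The seventh, Il1rap, was near 0 on both, at 0.14 and -0.13. Il1b was at -7.12 on day 6 and 0.39 on day 14. Il1r2 was at -7.42 and 2.09, the day 6 value resting on 0 counts in EGFP-positive cells. The ratios of Il18rap were -4.75 and 0.96, the day 14 value resting on 0 and 21 counts. Il1rn gave -1.96 and 0.39, Nlrp3 -1.89 and 0.36, and Il18 -1.21 and 0.38. The difference between days was not tested, since it has no replicates and day goes with table and sequencer. The summed neutrophil markers without Csf3r also had opposite order on both days, 12150 against 160 CPM on day 6 and 0.157 against 1137 CPM on day 14, and their part in the ratios was not tested.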

How the results depend on the processing

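Without replicates, the wild-type and EGFP values are limited to single libraries, and low counts such as the 2 of Il1rap on day 28 fix little. In the Yy1 comparison the count of members called was 1, and it was 2 with no filter on low counts, 2 with DESeq2 and between 0 and 2 when 1 library was left out. Pathway genes called were 2, and 5 with no filter, 6 with DESeq2, 4 with limma-voom and between 1 and 2 with 1 library left out. With the replicate number as a block, 1 member (Il18rap) and 4 pathway genes were called. The numbers showed no sign of pairing, as the correlations of same-numbered deviations were -0.00772, -0.048 and -0.0155, and 0 of 3 had its own number as best partner. Such a check cannot tell whether same-numbered libraries were prepared together. Over all genes, 192 were called higher and 130 lower, against 309 and 266 with no filter, 380 and 327 with DESeq2, and 58 and 39 without floxed control replicate 1. On day 6 the count of members past the size rule was 0, and 1 with a pseudocount of 0.25 CPM or a minimum of 5 CPM. On day 14 it was 1, and 2 with RLE scaling, total-count scaling or a minimum of 5 CPM, and 0 with a pseudocount of 4 CPM. For EGFP on day 14 it was 1, and 2 with total-count scaling. The causes were not tested. The counts for day 1, day 28 and EGFP on day 6 stayed within 1.5 times under the 6 alternatives run for each, and of 300 single log2 ratios under alternatives 42 moved and 0 reversed. Another scaling shifted the median of all genes by 0.17 (RLE) and 0.11 (total counts) on day 14, by 0.12 (RLE) on day 28 and by -0.10 (total counts) for EGFP on day 14.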

Other observations

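Il18rap was counted in libraries in which its receptor partner gene Il18r1 was at or near 0. In the floxed controls Il18rap was at 36.1, 40.7 and 38.8 CPM and Il18r1 at 0, 0.518 and 0 CPM. On day 28 in wild-type cells Il18rap was at 60.5 CPM and Il18r1 at 0. The EGFP-negative library of day 6 had the highest level of each in the time course table, 86.4 and 9.14 CPM.

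Counts of Il1rn per count of Il1b differed between the Yy1 libraries, at 4.67, 1.31 and 1.20 in the floxed controls and 0.231, 1.87 and 0.0799 in the deleted group, where replicate 2 lay within the range of the controls. On day 14 the EGFP-negative library had a ratio of 0.539 and the EGFP-positive one of 0.541. None of these ratios was adjusted for exon length.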
